A study of Mus musculus with 12 samples.

Results

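The genes described here are 7 enzymes that add double bonds to fatty acyl chains or lengthen them: the fatty acid desaturases Fads1, Fads2 and Fads3, the elongases Elovl1, Elovl2 and Elovl5, and the stearoyl-CoA desaturase Scd2. They were taken by gene symbol from the array's annotation. Each had 1 probe set with a single symbol, and all 7 were bright enough to test, among 19119 probe sets tested of 28815 on the array (13987 genes with 1 symbol). Highly unsaturated fatty acids such as arachidonic and docosahexaenoic acid are built in the liver from dietary linoleic and alpha-linolenic acid by alternating desaturation and elongation on the endoplasmic reticulum. Fads2 opens the pathway by setting a double bond into the dietary acids, Elovl5 lengthens its products, Fads1 sets the next double bond, and Elovl2 lengthens the longer polyunsaturated chains. The remaining members act mainly on other chains: Elovl1 on saturated and monounsaturated very long chains, Fads3 on the sphingoid base of ceramides, and Scd2, best known from brain and from the liver of newborn mice, makes monounsaturated fatty acids.

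Transcripts were measured in whole liver of 3-month-old ovariectomized mice of the C57BL/6 strain on Affymetrix Mouse Gene 1.0 ST arrays, with 2 arrays in each of 6 groups. The mice were MOER, which per the labels have oestrogen receptor alpha at the membrane only, ERKO, which per the labels lack this receptor, or wild type. In each genotype animals received either PPT, a synthetic ligand that activates oestrogen receptor alpha in preference to the beta form, at 100 µg by intraperitoneal injection on each of 3 days, or 0.1 mL of oil as placebo. The groups were thus MOER given PPT, MOER given oil, ERKO given PPT, ERKO given oil, wild type given PPT and wild type given oil, all ovariectomized 1 week before the injections. The labels do not state how the MOER and ERKO alleles were made. Each array carried a pool of RNA from 3 animals, so differences between animals within a pool were not measured. The study's title asks whether oestrogen acts on liver lipids through its membrane receptor, and the comparisons here set PPT against oil in each genotype, then the responses of the genotypes against each other, then the genotypes under oil.

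Array medians lay between 77.5 and 85.26, and replicate arrays had a Pearson r of 0.994 to 0.996 across tested probe sets except in the ERKO oil group, at 0.981. In that group 162 probe sets were over 2-fold apart, against 2 to 21 in the other groups. Esr1, the gene of oestrogen receptor alpha, gave intensities of 117 and 131 in MOER PPT arrays, 126 and 128 in MOER oil arrays, 145 and 162 in ERKO PPT arrays, 126 and 118 in ERKO oil arrays, 309 and 325 in wild type PPT arrays and 347 and 365 in wild type oil arrays. The MOER minus ERKO difference of Esr1 under oil was 0.05 ± 0.093 on the log2 scale (adjusted p = 0.816), so Esr1 intensity cannot serve to tell the MOER label from the ERKO label, and which part of the transcript it reads was not tested. All 8 hepatocyte markers were above the 40th percentile on every array. The 8 skeletal muscle markers summed to 15115 to 15819 in ERKO PPT arrays, against 439.5 to 442 in ERKO oil arrays, and the 9 pancreatic acinar markers summed to 625 to 652 in MOER PPT arrays, against 35714 to 45773 in MOER oil arrays. No marker of the lists used was at 0 on any array.

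Promoter sequence from RefSeq, build GRCm38.p6, was at hand for 5 of the 7 genes, in 7 windows that run from 250 bases before to 50 bases after a transcript start. The 250 bases before the start are shown for 2 genes whose transcripts were lower after PPT in wild type liver, Fads2 and Elovl5, and for 2 whose transcripts were higher, Elovl2 and Elovl1, each 5′ to 3′ on the gene's strand. Capitals mark the matches, on either strand, to the GC box GGGCGG and the CCAAT box CCAAT.
Fads2 (chr19:10101504-10101753, minus strand): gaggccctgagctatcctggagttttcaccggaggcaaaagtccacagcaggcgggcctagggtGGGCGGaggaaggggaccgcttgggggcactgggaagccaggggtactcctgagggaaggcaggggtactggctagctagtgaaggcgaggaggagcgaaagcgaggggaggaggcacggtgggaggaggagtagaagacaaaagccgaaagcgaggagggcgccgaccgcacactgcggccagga
Elovl5 (chr9:77917115-77917364, plus strand): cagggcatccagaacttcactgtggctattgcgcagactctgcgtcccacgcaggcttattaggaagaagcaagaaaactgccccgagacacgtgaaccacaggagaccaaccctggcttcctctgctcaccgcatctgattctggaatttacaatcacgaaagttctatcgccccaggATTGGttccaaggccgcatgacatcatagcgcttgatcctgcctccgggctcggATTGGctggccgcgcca
Elovl2 (chr13:41220404-41220653, minus strand): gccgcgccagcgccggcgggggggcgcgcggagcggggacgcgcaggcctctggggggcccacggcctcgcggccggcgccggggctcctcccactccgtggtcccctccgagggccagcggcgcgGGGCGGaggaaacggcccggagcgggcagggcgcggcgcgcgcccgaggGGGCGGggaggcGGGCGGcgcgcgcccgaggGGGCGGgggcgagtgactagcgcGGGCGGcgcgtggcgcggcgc
Elovl1 (chr4:118427843-118428092, plus strand): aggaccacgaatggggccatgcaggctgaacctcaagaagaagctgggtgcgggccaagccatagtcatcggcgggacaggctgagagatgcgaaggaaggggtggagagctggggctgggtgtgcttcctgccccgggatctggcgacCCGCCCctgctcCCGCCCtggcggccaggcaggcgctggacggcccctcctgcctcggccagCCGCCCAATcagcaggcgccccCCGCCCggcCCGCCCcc
The Fads2 window held 1 GC box, 186 to 181 bases before the start (positions -186 to -181). The Elovl5 window held 2 CCAAT boxes, both on the opposite strand, at -71 to -67 and -17 to -13, and 0 GC boxes. The Elovl2 window shown held 5 GC boxes, and the Elovl1 window shown held 5 GC boxes and 1 CCAAT box that shares letters with 1 of them. Elovl2 and Elovl1 each had another window, not shown. That of Elovl2 held 0 GC boxes and 0 CCAAT boxes, and that of Elovl1 held 2 GC boxes and 0 CCAAT boxes. The Fads3 window, also not shown, held 2 GC boxes and 2 CCAAT boxes. G and C made up 64.8% of the bases shown for Fads2, 55.6% for Elovl5, 87.2% for Elovl2 and 72% for Elovl1. Windows richer in G and C hold GC boxes more readily. Over all 32851 windows of the RefSeq table, 35.7% held a GC box and 37.4% a CCAAT box. Among the 7 windows 0 matched the core of the sterol regulatory element, TCACNCCAC, which 1.24% of all windows held, where N stands for any base. Likewise 0 matched the direct repeats AGGTCANAGGTCA (0.0396% of all windows) and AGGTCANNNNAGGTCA (0.0152%), or the inverted repeat GGTCANNNTGACC of the oestrogen response element (0.07%). These letter matches are descriptions of short windows and say nothing on the binding of any factor.

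**Figure D1:**
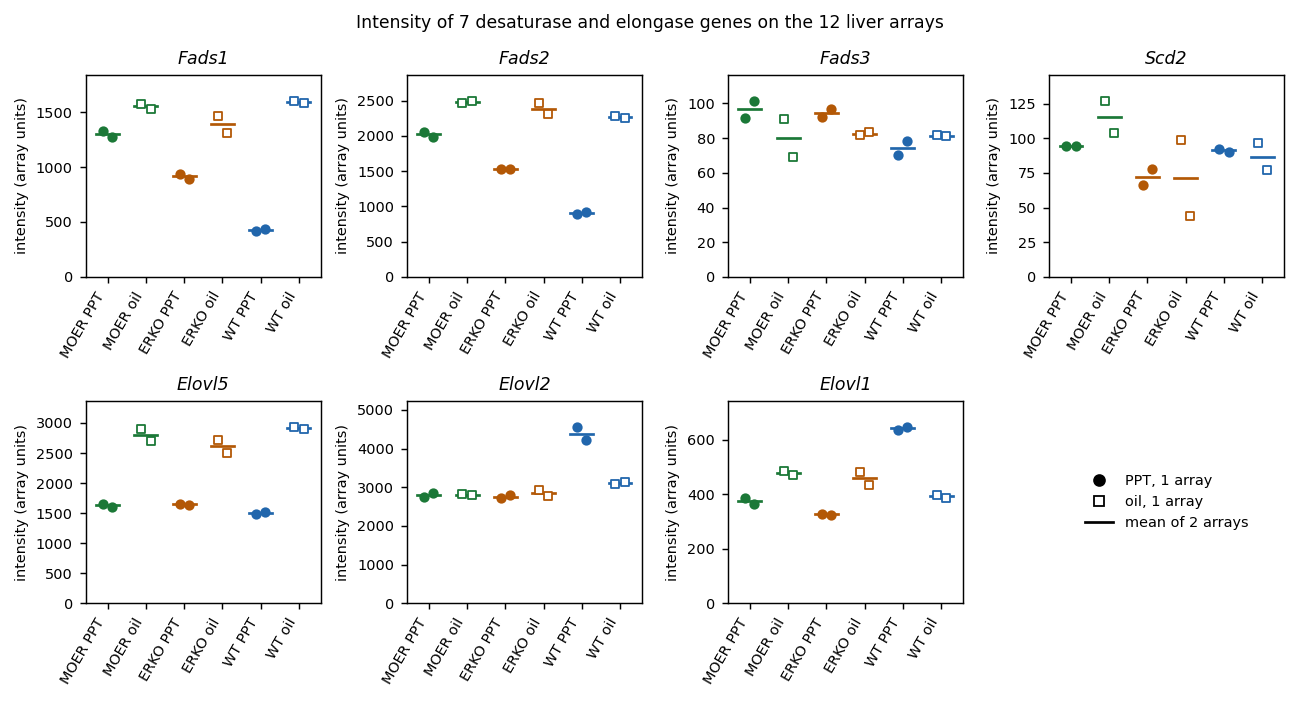
Intensity of the 7 genes on all 12 arrays, as deposited (array units, linear axes from 0). Filled circles are PPT arrays, open squares are oil arrays and lines are means of 2 arrays. Fads1 and Fads2 are lowest, and Elovl1 and Elovl2 highest, in the wild type PPT group, while Elovl5 is lower under PPT than under oil in all 3 genotypes.

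The desaturases of the polyunsaturated pathway, Fads1 and Fads2, did not pass the test in MOER liver, fell in ERKO liver, and fell after PPT in wild type liver by more than any other of the 7 genes. Fads1 (probe set 10461439, chromosome 19) had intensities of 1325 and 1277 in MOER PPT arrays, against 1576 and 1531 in MOER oil arrays. In ERKO it had 940.3 and 895 under PPT, against 1461 and 1314 under oil. In wild type it had 418 and 432 under PPT, against 1602 and 1585 under oil. In each genotype both PPT arrays were below both oil arrays, and the wild type PPT arrays were the lowest of all 12. The log2 change was -0.25 ± 0.087 (SE) in MOER (limma, Benjamini-Hochberg adjusted p = 0.173, 95% interval -0.45 to -0.06) and -0.59 ± 0.087 in ERKO (adjusted p = 0.00148). In wild type the Fads1 mean was 3.75-fold lower in PPT than in oil livers (425 ± 9.3 and 1593 ± 11.4, SD, n = 2), a log2 change of -1.87 ± 0.087 with an adjusted p of 8.67e-08. All log2 changes are of log2(intensity + 16), PPT minus oil, and a gene was called at an adjusted p under 0.05 over all probe sets tested.

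Fads2 (probe set 10465895, chromosome 19), the desaturase of the entry step, had intensities of 2056 and 1986 in MOER PPT arrays, against 2469.7 and 2494 in MOER oil arrays. In ERKO it had 1536 and 1534 under PPT, against 2458 and 2303 under oil. In wild type it had 898.5 and 921 under PPT, against 2276 and 2248 under oil. As for Fads1, PPT and oil arrays did not overlap in any genotype, and the 3 PPT groups were the 3 lowest. Its log2 change was -0.29 ± 0.081 in MOER (adjusted p = 0.0753), -0.63 ± 0.081 in ERKO (1.55-fold lower, adjusted p = 6.35e-04) and -1.30 ± 0.081 in wild type (2.49-fold lower, adjusted p = 7.55e-07). The MOER change of Fads2 passed with 64 added in place of 16 (adjusted p = 0.0342), with quantile normalisation (0.0344) and with a variance that follows intensity (0.0117), in a range of 0.0117 to 0.315 over all alternatives. Without either ERKO oil array, which changes no MOER value but does change the shared estimate of spread, adjusted p in MOER was 0.0201 for Fads2 and 0.0468 for Fads1, whose range was 0.0468 to 0.578.

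Elovl5, the elongase of the intermediates between Fads2 and Fads1, was the one member called in all 3 genotypes, and it fell in each. Elovl5 (probe set 10587284, chromosome 9) had intensities of 1649 and 1609.7 in MOER PPT arrays, against 2905 and 2699.85 in MOER oil arrays. In ERKO it had 1659.8 and 1639 under PPT, against 2721 and 2497 under oil. In wild type it had 1478 and 1516 under PPT, against 2929 and 2905 under oil. The 6 PPT arrays all lay below the 6 oil arrays, whatever the genotype. The log2 change was -0.78 ± 0.086 in MOER (1.72-fold lower, adjusted p = 3.03e-04), -0.66 ± 0.086 in ERKO (1.58-fold lower, adjusted p = 6.84e-04) and -0.95 ± 0.086 in wild type (1.95-fold lower, adjusted p = 1.05e-05).

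Elovl1 fell after PPT in ERKO liver, and both Elovl1 and Elovl2 rose in wild type liver. Elovl2 (probe set 10408838, chromosome 13), which lengthens the longer polyunsaturated chains, had intensities of 2739 and 2846 in MOER PPT arrays, against 2818 and 2799.6 in MOER oil arrays. In ERKO it had 2717 and 2796 under PPT, against 2916 and 2776 under oil. In wild type it had 4552 and 4217 under PPT, against 3089.7 and 3132 under oil. The wild type PPT arrays were above all others, and in ERKO and MOER the PPT and oil arrays overlapped. Its log2 change was -0.01 ± 0.084 in MOER (adjusted p = 0.983, 95% interval -0.19 to 0.18), -0.05 ± 0.084 in ERKO (adjusted p = 0.757, interval -0.23 to 0.14) and 0.49 ± 0.084 in wild type (1.41-fold higher, adjusted p = 0.00105).

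Elovl1 (probe set 10507539, chromosome 4), the elongase of saturated and monounsaturated very long chains, had intensities of 385 and 364 in MOER PPT arrays, against 484 and 473 in MOER oil arrays. In ERKO it had 328 and 325 under PPT, against 483 and 434 under oil. In wild type it had 637 and 646.5 under PPT, against 398 and 386 under oil. Both wild type PPT arrays thus exceeded every other array, while in ERKO and MOER both PPT arrays lay below both oil arrays. Its log2 change was -0.34 ± 0.086 in MOER (adjusted p = 0.0518), -0.47 ± 0.086 in ERKO (1.40-fold lower, adjusted p = 0.00486) and 0.69 ± 0.086 in wild type (1.64-fold higher, adjusted p = 1.22e-04). The MOER change of Elovl1, just outside the threshold, passed with 64 added (0.0307), with quantile normalisation (0.0111), with a variance that follows intensity (0.0233) and without either ERKO oil array (0.0119), in a range of 0.0111 to 0.295 over all alternatives.

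Fads3 and Scd2 were the members of lowest intensity and passed the test in none of the PPT responses. Fads3 (probe set 10461423, chromosome 19), the ceramide desaturase, had intensities of 91.7 and 101.4 in MOER PPT arrays against 90.9 and 69.1 in MOER oil arrays, 92.02 and 96.6 in ERKO PPT arrays against 81.6 and 83.3 in ERKO oil arrays, and 70.1 and 78.5 in wild type PPT arrays against 81.9 and 80.97 in wild type oil arrays. The arrays of PPT and oil did not overlap in any genotype, with PPT higher in MOER and ERKO and lower in wild type, and the log2 changes were 0.24 ± 0.11 (adjusted p = 0.374), 0.16 ± 0.11 (adjusted p = 0.36) and -0.11 ± 0.11 (adjusted p = 0.509) in that order. Scd2 (probe set 10463355, chromosome 19) had intensities of 94.4 and 94.3 in MOER PPT arrays against 127 and 104 in MOER oil arrays, 66.3 and 78.2 in ERKO PPT arrays against 98.8 and 43.8 in ERKO oil arrays, and 92.4 and 90.3 in wild type PPT arrays against 96.4 and 77.05 in wild type oil arrays. Replicate 2 of ERKO oil was the lowest Scd2 array, and of all array values of the 7 genes this 1 alone was under the 40th percentile of its array, which lay between 53.6 and 61.0. Scd2 changes were -0.25 ± 0.24 in MOER (adjusted p = 0.744), 0.09 ± 0.24 in ERKO (adjusted p = 0.843) and 0.07 ± 0.24 in wild type (adjusted p = 0.855); the standard error of Fads1 was 0.087. Leaving out replicate 1 of ERKO oil moved the ERKO change of Scd2 to 0.56 (adjusted p = 0.021) and leaving out replicate 2 moved it to -0.38 (adjusted p = 0.0782), so its sign in ERKO depends on which oil array is kept. The 5 neural and glial markers, from cells in which Scd2 is well known, summed to 360.2 to 386 in MOER PPT arrays, against 331 to 357 in MOER oil arrays. They summed to 290.3 to 330 in ERKO PPT arrays, against 318 to 324 in ERKO oil arrays. In wild type they summed to 270.1 to 272 under PPT, against 347 to 352 under oil. Of these markers 2 were bright enough to test, and 0 of these fell in MOER, 1 in ERKO and 1 in wild type. Their part in the Scd2 values was not tested.

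**Figure D2:**
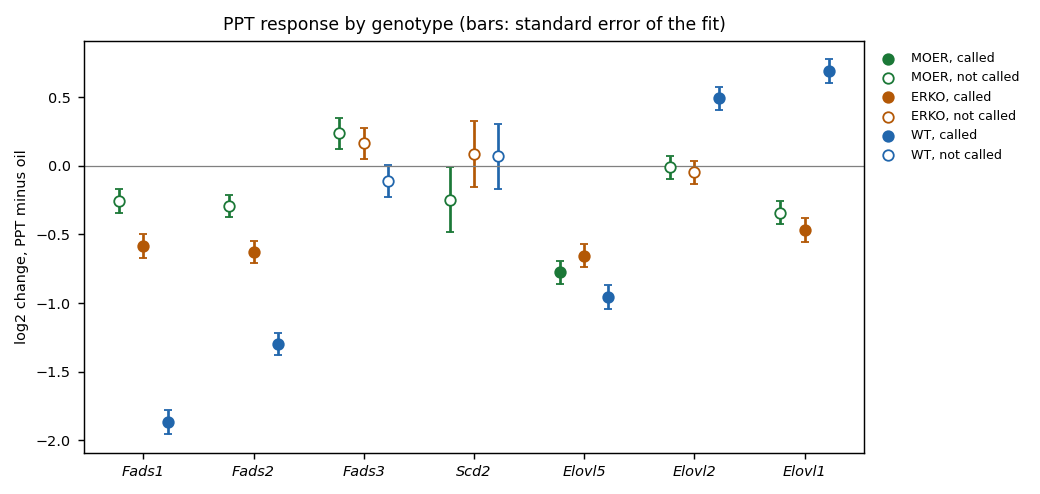
PPT response of the 7 genes in MOER, ERKO and wild type (WT) liver, as log2 change of intensity + 16, PPT minus oil, with the standard error of the fit. Filled points passed an adjusted p of 0.05. Elovl5 is negative and filled in all 3 genotypes, while Elovl1 and Elovl2 are positive and filled in wild type alone.

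Counted over the 7 genes, 1 was called in MOER, where 4.66% of all tested probe sets were called: 0 rose (2.35% of all probe sets) and 1 fell (2.31%). In ERKO 4 were called, against 17.9% of all: 0 rose (9.48%) and 4 fell (8.46%), the 4 being Fads1, Fads2, Elovl5 and Elovl1. With each array centred on its median, 40.4% of all calls in ERKO were increases, against 52.8% as deposited, and the same number of members was called. In wild type 5 were called, against 31% of all: 2 rose (14.8%) and 3 fell (16.2%). The median log2 change of the 7 was -0.25 in MOER, -0.47 in ERKO and -0.11 in wild type, and over all tested probe sets it was 0.00, 0.03 and 0.02. PPT and oil arrays did not overlap for 6 of 7 members in MOER, 5 of 7 in ERKO and 6 of 7 in wild type, against 48.1%, 49.9% and 72.2% of all probe sets, shares that 2 arrays a group make common. With a Cyber-T-style regularised test of each pair of groups at p under 0.0001 and at least 2-fold, the threshold the labels state, 0 members were called in MOER (0.889% of all probe sets), 0 in ERKO (1.52%) and 2, Fads1 and Fads2, in wild type (5.91%). At an unadjusted limma p under 0.05, 4 members passed in MOER, where 15.1% of all probe sets did, 4 in ERKO (32.2%) and 5 in wild type (40.3%).

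Other measures differed between the same arrays. Beside the MOER responses, 8 of 9 pancreatic acinar markers fell, with the sums given above. The 3 red cell precursor markers, of which 1 fell, summed to 1142 to 1256 under PPT, against 2649 to 2661 under oil. Beside the ERKO responses, all 8 skeletal muscle markers and 3 of 6 tested squamous and airway markers rose, the squamous and airway list summing to 5407 to 5749 under PPT, against 266 to 312 under oil. The 7 neutrophil markers summed to 1205 to 1268 in ERKO under PPT, against 1607 to 2148 under oil, and of 6 tested 0 rose and 3 fell. In wild type the 8 hepatocyte markers summed to 75706 to 80872 under PPT, against 93263 to 94786 under oil, and 1 rose and 3 fell. The 6 endothelial markers summed to 3392 to 3478 there, against 5675 to 5934 under oil, though 1 rose and 2 fell. The neutrophil markers summed to 4073 to 4115, against 244 to 288 under oil, and of 6 tested 5 rose and 0 fell. There the 5 adipocyte markers summed to 2183 to 2205 under PPT, against 3927 to 3989 under oil. Of these markers 4 were tested, of which 0 rose and 1 fell. In each wild type group only 1 of the 5 was above the 40th percentile on both arrays, so this sum does not measure fat cell content. The list as drawn up also included Adipor2, the gene of an adiponectin receptor. The red cell precursor markers summed to 1876 to 1935 in wild type under PPT, against 1181 to 1239 under oil. Of the 3 red cell precursor markers 1 rose and 1 fell there. Apart from the hepatocyte list, shown as the defining cells of liver, these were all the lists of 13 whose mean sum differed at least 1.5-fold with no overlap. The other ratios of PPT to oil, the hepatocyte list included, were 0.905 to 1.20 in MOER, 0.764 to 1.36 in ERKO and 0.774 to 1.22 in wild type. Lists within these ratios still held called markers. The adipocyte list had a ratio of 1.03 in ERKO, where 2 of its 4 tested markers rose and 0 fell. Of 10 macrophage and Kupffer cell markers, 3 rose and 1 fell in MOER, 0 rose and 5 fell in ERKO, and 4 rose and 1 fell in wild type. Of 7 stellate cell and fibroblast markers, 3 rose and 0 fell in ERKO, and 0 rose and 2 fell in wild type. The part of the listed cell types in the values of the 7 genes was not tested. In whole liver fewer cells of a type and less RNA per cell cannot be told apart. Without replicate 1 or replicate 2 of ERKO oil, the arrays that stood furthest apart, the ERKO change was -0.51 or -0.66 for Fads1, -0.58 or -0.67 for Fads2, -0.59 or -0.72 for Elovl5 and -0.39 or -0.54 for Elovl1, each still called. With the 4 ERKO arrays fitted alone, 0 members were called in ERKO, with adjusted p between 0.0585 for Elovl5 and 0.156 for Elovl1.

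The differences between responses separated the genes into those whose PPT response depended on genotype in the test and those for which no difference passed. Of the 7 genes 4 were called in MOER minus wild type, against 21.6% of all probe sets, and 4 in ERKO minus wild type, against 22.3%. Both contrasts use the same wild type arrays, so the second is no repeat of the first. For Fads1 the response was higher, that is less negative, by 1.61 ± 0.12 in MOER than in wild type (adjusted p = 7.45e-06, 95% interval 1.34 to 1.89), and by 1.28 ± 0.12 in ERKO than in wild type (adjusted p = 3.73e-05). For Fads2 the differences were 1.00 ± 0.11 (adjusted p = 1.12e-04) and 0.67 ± 0.11 (adjusted p = 0.00177). For Elovl1 they were -1.03 ± 0.12 for MOER minus wild type (adjusted p = 1.42e-04) and -1.16 ± 0.12 for ERKO minus wild type (adjusted p = 7.23e-05), and the Elovl1 response had opposite signs in wild type and in the other 2 genotypes. For Elovl2 they were -0.50 ± 0.12 (adjusted p = 0.0113) and -0.54 ± 0.12 (adjusted p = 0.00798). The MOER minus wild type call of Elovl2 was lost without replicate 1 of wild type oil (-0.49, adjusted p = 0.0509) or replicate 1 of wild type PPT (-0.45, adjusted p = 0.0632).

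For Elovl5 neither difference passed: MOER minus wild type was 0.18 ± 0.12 (adjusted p = 0.371, 95% interval -0.09 to 0.45) and ERKO minus wild type 0.30 ± 0.12 (adjusted p = 0.105, interval 0.03 to 0.57). The ERKO minus wild type value passed with quantile normalisation (0.27, adjusted p = 0.0443), with a variance that follows intensity (adjusted p = 0.0339) and without replicate 1 of ERKO oil (0.36, adjusted p = 0.0267), and its adjusted p ranged up to 0.253 over the alternatives. Fads3 gave 0.35 ± 0.16 for MOER minus wild type (adjusted p = 0.17), which passed without replicate 1 of MOER oil (0.51, adjusted p = 0.0469), and 0.27 ± 0.16 for ERKO minus wild type (adjusted p = 0.264). Scd2 gave -0.32 ± 0.34 for MOER minus wild type (95% interval -1.06 to 0.43) and 0.02 ± 0.34 for ERKO minus wild type (interval -0.73 to 0.76).

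Between MOER and ERKO 0 of 7 members passed for the difference of responses, against 11.5% of all probe sets, and 2 had an unadjusted p under 0.05 in limma, against 26.2% of all probe sets. These were Fads1, at 0.33 ± 0.12 (adjusted p = 0.113, 95% interval 0.06 to 0.61), and Fads2, at 0.33 ± 0.11 (adjusted p = 0.0903, interval 0.08 to 0.59), both less negative in MOER. Both passed with quantile normalisation (0.39, adjusted p = 0.0144, and 0.41, adjusted p = 0.0119), with a variance that follows intensity (adjusted p = 0.0422 and 0.023), and without replicate 2 of ERKO oil (0.41, adjusted p = 0.0275, and 0.38, adjusted p = 0.0302), and over all alternatives adjusted p ranged up to 0.29 for Fads1 and 0.247 for Fads2. For Elovl5 MOER minus ERKO was -0.12 ± 0.12 (adjusted p = 0.582), for Elovl1 0.13 ± 0.12 (adjusted p = 0.564), and for Elovl2 0.04 ± 0.12 (adjusted p = 0.884). Scd2, at -0.33 ± 0.34, gave -0.80 without replicate 1 of ERKO oil (adjusted p = 0.015) and 0.14 without replicate 2 (adjusted p = 0.642).

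**Figure D3:**
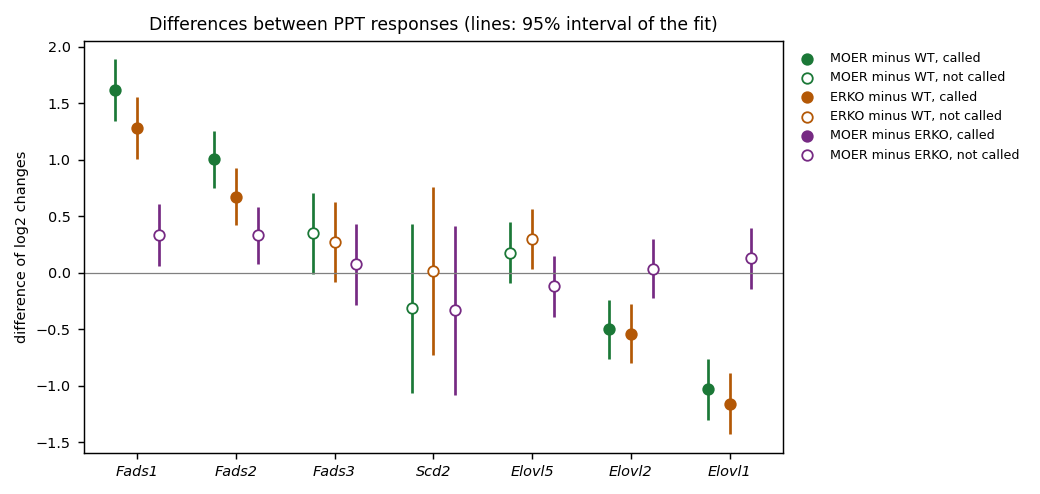
Differences of PPT responses (log2) for the 7 genes with 95% intervals of the fit, for MOER minus wild type, ERKO minus wild type and MOER minus ERKO. Filled points passed an adjusted p of 0.05: Fads1 and Fads2 are positive and Elovl1 and Elovl2 negative in both contrasts with wild type, and no MOER minus ERKO point is filled.

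Under oil no difference between genotypes passed the test for the 7 genes. In limma 0 were called in ERKO minus wild type, where 5.01% of all probe sets were called, 0 in MOER minus wild type (5.66%) and 0 in MOER minus ERKO (2.05%). At an unadjusted p under 0.05 the numbers were 2 in ERKO minus wild type, where 23.3% of all probe sets passed, 1 in MOER minus wild type (25.2%) and 1 in MOER minus ERKO (16.3%). With the 6 oil arrays fitted alone in limma, with or without a replicate block, 0 members were called in each of the 3. The Cyber-T-style test also called 0 in each. Fads1 was -0.20 ± 0.087 in ERKO relative to wild type (adjusted p = 0.2), and -0.28 without replicate 1 of ERKO oil (adjusted p = 0.0302). Elovl1 was 0.22 ± 0.086 in ERKO relative to wild type (adjusted p = 0.171) and 0.28 ± 0.086 in MOER relative to wild type (adjusted p = 0.0887). The MOER value of Elovl1 passed with the ERKO arrays left out of the fit (adjusted p = 0.0328), without either ERKO oil array (0.0229) and with quantile normalisation (0.38, adjusted p = 0.00923), which also called the ERKO value (0.28, adjusted p = 0.0293). Scd2 was -0.30 ± 0.24 in ERKO relative to wild type and 0.66 ± 0.24 in MOER relative to ERKO (adjusted p = 0.204). Without replicate 1 of ERKO oil, which leaves the dim replicate 2 alone, the Scd2 values were -0.77 (adjusted p = 0.00585) and 1.13 (adjusted p = 0.00355), and without replicate 2 they were 0.17 (adjusted p = 0.591) and 0.19 (adjusted p = 0.408).

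Ordered by their means over the 6 groups, Fads1 and Fads2 differed in where the oil groups lay. Fads1 ran from wild type oil through MOER oil to ERKO oil and MOER PPT, whose arrays overlapped, then ERKO PPT and wild type PPT, which stood 1.08 below ERKO PPT on the log2 scale. Fads2 ran from MOER oil through ERKO oil, wild type oil, MOER PPT and ERKO PPT to wild type PPT, with no overlap between neighbours, though the 3 oil groups lay within 0.13 of each other. For Elovl5 the arrays of wild type oil and MOER oil overlapped, as did those of MOER oil and ERKO oil and those of ERKO PPT and MOER PPT. For Elovl2 wild type PPT stood 0.49 above wild type oil, and the other 4 groups overlapped in sequence. Elovl1 ran from wild type PPT through MOER oil and ERKO oil, which overlapped, to wild type oil, MOER PPT and ERKO PPT. Across the 12 arrays, which share the 6 groups, Fads1 and Fads2 had a Pearson r of 0.988, Fads1 and Elovl5 0.765, Elovl1 and Elovl2 0.793, and Fads1 and Elovl2 -0.82, given as a description.

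Fads1, Fads2 and Fads3 lie side by side on chromosome 19, and Scd2 lies in a row with the other stearoyl-CoA desaturase genes on the same chromosome. In the gene order of RefSeq, build GRCm38.p6, Fads3 is followed by Fads2, Fads1, Fen1, Tmem258 and Myrf. Fen1, a flap endonuclease of DNA replication and repair, changed by -0.28 ± 0.12 in MOER (adjusted p = 0.301) and -0.33 ± 0.12 in ERKO (adjusted p = 0.0829) and rose by 1.30 ± 0.12 in wild type (adjusted p = 1.32e-05), where the adjacent Fads1 fell. Tmem258, a subunit of the oligosaccharyltransferase complex, changed by -0.01 ± 0.13 in MOER (adjusted p = 0.992) and 0.29 ± 0.13 in ERKO (adjusted p = 0.167) and rose by 1.29 ± 0.13 in wild type (adjusted p = 3.16e-05). On the Fads3 side Fth1, a ferritin chain, rose by 0.41 ± 0.11 in wild type (adjusted p = 0.0124), while Best1 and Rab3il1 passed in no genotype. In the stearoyl-CoA desaturase cluster Scd1, the main form of adult liver, gave -0.26 ± 0.095 in MOER (adjusted p = 0.207), fell in ERKO (-0.38 ± 0.095, adjusted p = 0.0193), and fell in wild type (-1.74 ± 0.095, adjusted p = 2.72e-07) to a mean intensity of 2322 under PPT, against 7790.4 under oil. Scd4, which lies beside it, and Scd2, beyond Scd4, passed in no genotype. Scd3 did not pass the filter on low values.

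**Figure D4:**
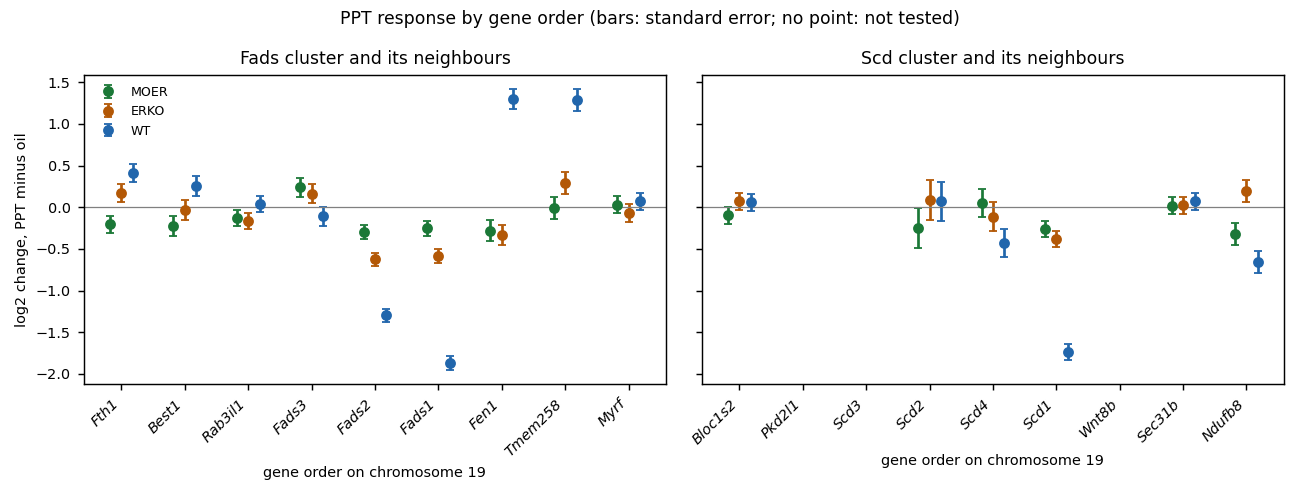
PPT response (log2 change, PPT minus oil, with standard error) of the genes around the Fads and Scd clusters in their order on chromosome 19, for MOER, ERKO and wild type (WT). Fads2 and Fads1 lie below 0 and the adjacent Fen1 and Tmem258 above 0 in wild type, and Scd1 lies below 0 in wild type while Scd2, on the other side of Scd4, is near 0.

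The rest of the machinery was described from lists of known genes, given as counts beside the medians of all probe sets above. Of all probe sets tested, 2.35% rose and 2.31% fell in MOER, 9.48% and 8.46% in ERKO, and 14.8% and 16.2% in wild type. The counts of every list are to be read against these shares, and no list was tested as a set. Of 6 tested other desaturases and elongases, 0 rose and 2 fell in MOER, 1 rose and 3 fell in ERKO, and 0 rose and 4 fell in wild type, with medians of -0.12, -0.30 and -0.74. Those that fell in wild type were Scd1, Elovl3, Fads6 (-0.98 ± 0.11, adjusted p = 5.41e-05) and Elovl6 (-0.51 ± 0.093, adjusted p = 0.00174). Elovl6, which lengthens palmitic to stearic acid, fell in MOER (-0.73 ± 0.093, adjusted p = 8.77e-04) and ERKO (-0.63 ± 0.093, adjusted p = 0.00153) too. Elovl3, an elongase with sex-biased levels in mouse liver, averaged 23.1 in MOER PPT against 102 in MOER oil, 1643 in ERKO PPT against 163 in ERKO oil, and 0.615 in wild type PPT against 122 in wild type oil. Its MOER PPT and wild type PPT arrays were under the 40th percentile of their arrays, so Elovl3 was at least 1.68-fold lower in MOER (adjusted p = 6.16e-04) and at least 2.17-fold lower in wild type (adjusted p = 8.42e-07), and it rose by 3.26 ± 0.19 in ERKO (adjusted p = 1.57e-06). The ERKO PPT arrays also had the raised skeletal muscle and squamous and airway markers given above. The part of such cells in the Elovl3 value was not tested.

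Among 11 tested genes of the shared steps of elongation and of electron supply to the desaturases, 0 rose and 2 fell in MOER, 1 rose and 2 fell in ERKO, and 1 rose and 6 fell in wild type, with medians of -0.24, 0.06 and -0.30. Cyb5r3, a cytochrome b5 reductase that passes electrons on to desaturation, fell in MOER (-0.47 ± 0.10, adjusted p = 0.0215), gave -0.31 ± 0.10 in ERKO (adjusted p = 0.0541) and fell in wild type (-1.26 ± 0.10, adjusted p = 3.98e-06). Cyb5b, the cytochrome b5 of the mitochondrial outer membrane, fell in MOER (-0.40 ± 0.084, adjusted p = 0.0214). It gave -0.24 ± 0.084 in ERKO (adjusted p = 0.0775) and fell in wild type (-1.16 ± 0.084, adjusted p = 2.24e-06). Cyb5a, the form of the endoplasmic reticulum, gave -0.09 ± 0.10 in wild type (adjusted p = 0.54). Tecr, the reductase that closes each elongation cycle, gave -0.30 ± 0.11 in MOER (adjusted p = 0.179), fell in ERKO (-0.50 ± 0.11, adjusted p = 0.0102) and fell in wild type (-0.998 ± 0.11, adjusted p = 3.6e-05). Hacd4, a dehydratase of that cycle, was dim in wild type PPT and at least 1.65-fold lower there than in wild type oil (adjusted p = 0.00339).

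**Figure D5:**
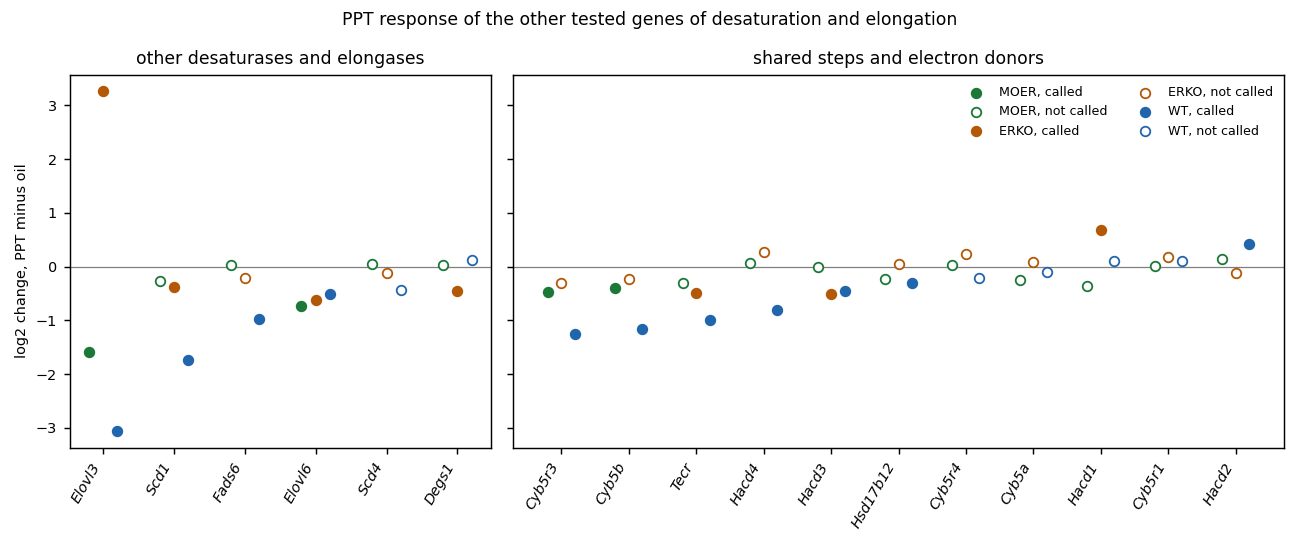
PPT response (log2 change, PPT minus oil) of the other tested desaturases and elongases and of the shared steps of elongation and electron supply, in MOER, ERKO and wild type (WT). Filled points passed an adjusted p of 0.05; Elovl3 is negative in MOER and wild type, where its PPT arrays were dim and the plotted size is not measured, and positive in ERKO.

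Of 14 acyl-CoA ligases and acyltransferases that handle polyunsaturated chains, 0 rose and 0 fell in MOER, 0 rose and 2 fell in ERKO, and 2 rose and 5 fell in wild type, with medians of -0.10, -0.11 and -0.26. In wild type Lpgat1 rose by 1.29 ± 0.10 (adjusted p = 4.08e-06), while Acsl4, a ligase that favours arachidonic acid, changed by -0.86 ± 0.099 (adjusted p = 6.29e-05) and Lpcat3, which places polyunsaturated chains in phospholipids, by -0.73 ± 0.092 (adjusted p = 1.27e-04). Agpat2, an acyltransferase of phosphatidic acid synthesis, changed by -0.50 ± 0.11 (adjusted p = 0.00401).

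Of 14 genes of peroxisomal chain shortening, the last step towards docosahexaenoic acid, 0 rose and 4 fell in MOER, 0 rose and 7 fell in ERKO, and 3 rose and 6 fell in wild type, with medians of -0.04, -0.37 and -0.26. Ehhadh, a peroxisomal bifunctional enzyme, moved in opposite directions: it fell in MOER (-0.78 ± 0.093, adjusted p = 5.42e-04) and ERKO (-1.03 ± 0.093, adjusted p = 4.93e-05) and rose in wild type (2.40 ± 0.093, adjusted p = 2.22e-08). The thiolase gene Acaa1b fell in all 3 genotypes, with changes of -1.29 ± 0.11 in MOER (adjusted p = 5.95e-05), -0.997 ± 0.11 in ERKO (adjusted p = 2.6e-04) and -2.20 ± 0.11 in wild type (adjusted p = 1.92e-07). The peroxisomal transporter genes Abcd2 and Abcd3 also fell in all 3, Abcd3 with changes of -0.35 ± 0.081 in MOER, -0.39 ± 0.081 in ERKO and -1.17 ± 0.081 in wild type. Decr2, a peroxisomal reductase of unsaturated chains, fell in wild type (-1.08 ± 0.082, adjusted p = 2.93e-06).

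Of 22 enzymes that turn polyunsaturated acids into eicosanoids and oxylipins, 0 rose and 5 fell in MOER, 1 rose and 7 fell in ERKO, and 5 rose and 6 fell in wild type, with medians of -0.07, -0.03 and -0.06. Ptgds, a prostaglandin D synthase, gave -0.12 ± 0.10 in MOER (adjusted p = 0.695) and -0.25 ± 0.10 in ERKO (adjusted p = 0.122), and averaged 1583 in wild type PPT arrays against 103 in wild type oil arrays (3.75 ± 0.10, adjusted p = 2.84e-09). Ephx2, the soluble epoxide hydrolase, fell in MOER (-0.44 ± 0.10, adjusted p = 0.0366), in ERKO (-0.63 ± 0.10, adjusted p = 0.00259) and in wild type (-1.06 ± 0.10, adjusted p = 1.87e-05). Cyp4a10 and Cyp4a14, fatty acid hydroxylases, fell in all 3 genotypes, Cyp4a10 with changes of -1.88 ± 0.085 in MOER, -0.44 ± 0.085 in ERKO and -0.86 ± 0.085 in wild type. Cyp4f14, a hydroxylase that acts on leukotrienes, fell in wild type (-1.82 ± 0.12, adjusted p = 1.16e-06).

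Of 16 genes listed as regulators of the desaturase genes or as their neighbours, 0 rose and 2 fell in MOER, 2 rose and 2 fell in ERKO, and 5 rose and 7 fell in wild type, with medians of -0.10, -0.16 and -0.25. Srebf1, a transcription factor of fatty acid synthesis and desaturation, fell in MOER (-1.04 ± 0.12, adjusted p = 4.03e-04), in ERKO (-0.94 ± 0.12, adjusted p = 5.54e-04) and in wild type (-1.38 ± 0.12, adjusted p = 8.23e-06). Insig1, a protein that holds back the activation of such factors, fell in MOER (-0.61 ± 0.10, adjusted p = 0.00565), gave -0.13 ± 0.10 in ERKO (adjusted p = 0.434) and fell in wild type (-1.68 ± 0.10, adjusted p = 6.9e-07). Insig2, its relative, gave -0.22 ± 0.085 in MOER (adjusted p = 0.242), rose in ERKO (0.49 ± 0.085, adjusted p = 0.00347) and rose in wild type (2.27 ± 0.085, adjusted p = 1.69e-08). Mlxipl, a carbohydrate-responsive transcription factor, fell in wild type (-1.17 ± 0.092, adjusted p = 3.94e-06).

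The 3 genes whose pattern over the 12 arrays was most like that of each member were taken by Pearson r of log2(intensity + 16) among 13987 genes, as a description. For Fads1 they were Gnmt (r 0.994), Serpinb1a (0.994) and Mettl7b (0.993). Gnmt changed by -0.25 in MOER, -0.47 in ERKO and -1.58 in wild type, near the Fads1 values. A high r does not imply a like size of change. Serpinb1a changed by -0.48 in MOER, -0.94 in ERKO and -3.12 in wild type, and Mettl7b by -0.10, -0.33 and -1.13. For Fads2 they were Ildr2 (0.995), Slco1a4 (0.994) and Atp6v0d2 (0.993), for Elovl2 Adap2 (0.992), Gna13 (0.99) and Net1 (0.989), and for Elovl1 Yars (0.969), Ppid (0.95) and Gfpt1 (0.949). For Elovl5 they were Acaa1b (0.98), Acot3 (0.978) and Acot4 (0.977), of which Acaa1b is the peroxisomal thiolase gene above and the other 2 are acyl-CoA thioesterases. Acot4 changed by -0.87 in MOER, -0.97 in ERKO and -1.001 in wild type, and Acot3 by -2.21, -2.83 and -3.78. The members of lowest intensity had looser matches, Prss47 at 0.838 for Fads3 and Cwc25 at 0.933 for Scd2.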

How the data were processed

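The deposited table held 1 linear intensity per probe set and array, made by the authors; the probe summary and array normalisation behind it are not stated in the labels. Per the labels' protocols the RNA of 3 animals was pooled per treatment and genotype and the study was done again; the labels leave unsaid whether both arrays of a group hold RNA of different animals, so p-values measure only the spread between these arrays, and their number limits the precision. The authors used Cyber-T at 99.99% with a 2-fold minimum, per the labels.

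Deposited intensities were used without further normalisation and transformed to log2(intensity + 16); 389 values were 0. A probe set was tested when it exceeded its array's 40th percentile (53.6 to 61.0) on at least 2 of 12 arrays, and a gene was read by its brightest probe set with 1 symbol. The 12 arrays were fitted together in limma with a mean per group (lmFit and eBayes, version 3.58.1 in R 4.3.3). This left 6 residual degrees of freedom, 10.5 after moderation. The fit was also run on simulated arrays in which each probe set had the same spread in all 6 groups. That run cannot speak to the wider spread between the ERKO oil arrays. Tests were two-sided, with Benjamini-Hochberg adjustment over 19119 probe sets. Errors are SE of log2 changes or SD of intensities. A group was dim for a probe set when both arrays were at or under their 40th percentile; folds against it are bounds. From each list up to 4 genes of smallest p in wild type, then MOER, were named, and Abcd2, Cyp4a10 and Cyb5a were named in addition. Fth1, Best1, Rab3il1, Myrf, Fen1, Tmem258, Scd3 and Scd4 were named as neighbours. Replicate differences correlated between groups at 0.28 to 0.38 for all 3 pairs of oil groups and at -0.15 to 0.13 for the other 12 pairs, of which 2 were over 0.1. Replicate differences were thus more alike between oil groups than between other groups. The labels do not say what a replicate number marks, and whether it pairs arrays was not tested. The members and lists were chosen with earlier results of these data known. Alternatives were other added constants, no filter, quantile normalisation, median centring, a trended variance, a replicate block, each array left out, and the genotypes concerned alone. A further alternative was the Cyber-T-style test on log2(intensity + 16) of the probe sets tested (window of 101 probe sets, 10 prior degrees of freedom).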

Additional observations from a re-analysis of the deposited data

Results flagged for a closer look

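For 4 of the 7 genes the PPT response differed between a mutant genotype and wild type in the test of the difference itself, a limma interaction contrast over 2 arrays a group. For MOER minus wild type the difference of log2 changes was 1.61 for Fads1, 1.00 for Fads2, -1.03 for Elovl1 and -0.50 for Elovl2. For ERKO minus wild type it was 1.28 for Fads1, 0.67 for Fads2, -1.16 for Elovl1 and -0.54 for Elovl2. The contrasts share the wild type arrays. All 8 differences had adjusted p between 7.45e-06 (Fads1, MOER minus wild type) and 0.0113 (Elovl2, MOER minus wild type), and the last of these is the one that was lost when 1 wild type array was left out.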

How the results depend on the processing

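In wild type no call of a member changed under any of the limma alternatives run, and no called change of a member reversed in any comparison. The numbers of members called, first as reported, were 1 and 0 in MOER, 4 and 0 in ERKO, and 5 and 2 in wild type for the Cyber-T-style test, whose threshold asks for 2-fold and which has no form here for differences of responses. With the genotypes concerned alone, 0 members were called in ERKO and 1 in MOER minus wild type under oil, and the probe sets called were 576 in ERKO (3430 as reported), 1037 for the MOER minus ERKO difference (2193), 367 for ERKO minus wild type (957), 3200 for MOER minus wild type (1082) and 155 for MOER minus ERKO under oil (392). Adding 64, quantile normalisation and a trended variance each gave 3 members in MOER, and quantile normalisation and the trended variance gave 2 members in the MOER minus ERKO difference. Quantile normalisation gave 1 member in ERKO and 1 in MOER relative to wild type under oil, and 1471 probe sets in MOER (890), 3502 for the MOER minus ERKO difference, 1674 for ERKO minus wild type and 813 for MOER minus ERKO under oil. The trended variance gave 1626 and 767 for the last 2. Without the filter 552, 696 and 236 probe sets were called for ERKO minus wild type, MOER minus wild type and MOER minus ERKO under oil, and median centring gave 1716 for MOER minus wild type under oil, of which 18.6% were increases (37.6% as reported), and 24.3% of calls for MOER minus ERKO under oil (43.6%). The Cyber-T-style test called 170 probe sets in MOER, 290 in ERKO, 1129 in wild type (5921), and 105, 181 and 77 in the 3 comparisons under oil in that order. With 1 array left out, a lone array being assumed to vary like the other groups, members called ranged from 1 to 4 in MOER, 4 to 5 in ERKO, 5 to 5 in wild type, 3 to 5 for the MOER minus wild type difference (4), 4 to 5 for ERKO minus wild type (4), 0 to 2 for MOER minus ERKO (0), and under oil 0 to 2 for ERKO minus wild type, 0 to 1 for MOER minus wild type and 0 to 1 for MOER minus ERKO. Probe sets called ranged from 437 to 1672 in MOER, 1200 to 5346 in ERKO, 4026 to 7737 in wild type, 2959 to 5607, 2873 to 6735 and 1078 to 4802 for the differences in the same order, and 230 to 6329, 249 to 3332 and 123 to 2151 under oil. The highest of these came without replicate 1 of ERKO oil, and those in MOER, in wild type and for both MOER minus wild type comparisons equally without its replicate 2. The members gained in MOER, for MOER minus ERKO and under oil also came without 1 of these 2 arrays. The lowest came without replicate 1 of MOER PPT in MOER, replicate 2 of ERKO PPT in ERKO and for the MOER minus ERKO difference, replicate 2 of wild type oil for ERKO minus wild type under oil, and replicate 2 of MOER oil for the other two under oil; the cause was not tested. With a replicate block 1, 4 and 5 members were called in MOER, ERKO and wild type, as reported, and the block changed no call of a member in the other comparisons. With the 6 oil arrays alone, chosen after seeing the data, the probe sets called were 352 with the block and 168 without it for ERKO minus wild type, 486 and 177 for MOER minus wild type, and 260 and 91 for MOER minus ERKO. The mean of all probe sets per gene changes nothing, since each member has 1. No detection calls were used, so Fads3 and Scd2, the members closest to the 40th percentile, are those that signal over background limits most.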
